A study of Homo sapiens with 6 samples.

Results

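The epidermal growth factor receptor EGFR, its partner receptor ERBB3, the ligands AREG, EREG, HBEGF, TGFA, BTC and NRG1, the feedback inhibitor ERRFI1 and the sheddase ADAM17 were followed in MDA-MB-231 cells after knockdown of YAP1. These 10 genes were chosen by symbol, with earlier results of these data known, from the 60612 genes with deposited values. MDA-MB-231 is an established human triple-negative breast cancer (TNBC) cell line, and RNA-sequencing was performed on cells with Sh-NC, a control short hairpin RNA, or Sh-YAP1, a short hairpin RNA against YAP1. Stable expression of the hairpins is stated in the figure legends of the paper. Its methods describe transfection of short hairpin RNA, with efficacy checked some days later. Which of these holds for the libraries is not settled by the sources used here. The methods also name another series for the RNA-sequencing, so the libraries were matched to the paper by cell line and hairpin. Each group had 3 libraries from day 3, with the genotype labelled WT in Sh-NC and YAP1 knockdown in Sh-YAP1, and no treatment was given to either group. A single Sh-YAP1 group was sequenced, so an effect of the hairpin on other genes and an effect of the loss of YAP1 cannot be told apart. Whether the cells were a clone or a pool is not given in the sources used here. The methods state in general that data came from independent repeats, but neither they nor the labels say of these libraries that they came from separate cultures. The p-values therefore measure the spread between these libraries, which may be technical.

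EGFR is a receptor tyrosine kinase at the cell surface that is activated when a ligand makes it pair with another EGFR molecule or with a related ERBB receptor. The EGFR ligands are made as precursors in the membrane and are released by proteases such as ADAM17, so that a cell can stimulate itself and its neighbours. ERBB3 has little kinase activity of its own, binds neuregulins such as NRG1 and signals as a partner of other ERBB receptors. YAP1 is a transcriptional co-activator that works with the TEAD factors, and AREG is a reported YAP1 target in breast epithelial cells. The comparison of Sh-YAP1 with Sh-NC addresses whether the transcripts of this autocrine system change when YAP1 is depleted.

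The deposited values were FPKM, that is, fragment counts divided by transcript length and by the mapped fragments of a library. Values of a group are given in the order of replicates 1 to 3. A gene level below is the sum of the FPKM of all listed transcripts of the gene, and fold changes are differences of log2(FPKM + 1). The FPKM values of a library summed to between 467493 and 475116, and the depth of the libraries is unknown. YAP1 was at 28.1, 26.2 and 22.9 FPKM in the Sh-NC libraries and at 3.35, 2.67 and 2.58 FPKM in the Sh-YAP1 libraries, and every Sh-YAP1 library lay far below every Sh-NC library. Its log2 fold change was -2.79 (standard error 0.12, limma, Benjamini-Hochberg-adjusted p = 0.0018). Among the 5 epithelial markers, KRT8, KRT18 and KRT19 were at or above 99.9 FPKM in every library, whereas EPCAM was at 2.43 to 3.27 FPKM and CDH1, which encodes E-cadherin, did not exceed 0.49 FPKM. The epithelial markers summed to between 422 and 485 FPKM in Sh-NC and to between 348 and 380 FPKM in Sh-YAP1, and KRT19 fell from 176.8 to 124 FPKM (limma, Benjamini-Hochberg-adjusted p = 0.0273). The part of this shift in the results below was not tested. Of the receptors that define TNBC by their absence or lack of amplification, the hormone receptor genes ESR1 and PGR did not exceed 0.07 FPKM, whereas ERBB2 was at 14.3 to 18.1 FPKM. None of 10 markers of leukocytes, endothelial cells and fibroblasts exceeded 1.71 FPKM, CD3E was listed at 0 in every library, and their sums were 3.75 to 4.44 FPKM in Sh-NC and 3.05 to 4.53 FPKM in Sh-YAP1.

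Among the 10 genes, NRG1 was the gene that passed the test. It fell in Sh-YAP1, while EGFR, ERBB3, AREG, EREG, HBEGF, TGFA, ERRFI1 and ADAM17 did not pass. BTC, with a mean of 0.498 FPKM over the 6 libraries, lay just under the minimum of 0.5 FPKM and was not tested. ERBB3, with the next lowest mean at 2.36 FPKM, was well above it. Thus 1 of 9 tested members passed the threshold of 0.05 on the p adjusted in limma by Benjamini-Hochberg across all genes, against a background of 3.38% of the 14770 genes tested. It was lower in Sh-YAP1, as were 1.62% of all genes tested, and none of the members rose, against 1.75% of all genes. Before adjustment, 5 of the 9 had a p under 0.05 in limma, against 21.9% of all genes tested. The Sh-NC and Sh-YAP1 libraries did not overlap for 7 of the 9 members, 4 lower and 3 higher in Sh-YAP1, against 29.4% of all genes tested. The median log2 fold change of the 9 members was -0.11, and that of all genes tested was -0.00138. The log2 fold changes of the members lay between -0.47 and 0.29. With the most abundant transcript of each gene in place of the gene sum, an alternative chosen after seeing the data, 0 of the 9 members passed (limma, Benjamini-Hochberg), against 0.685% of 14010 genes.

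**Figure D1:**
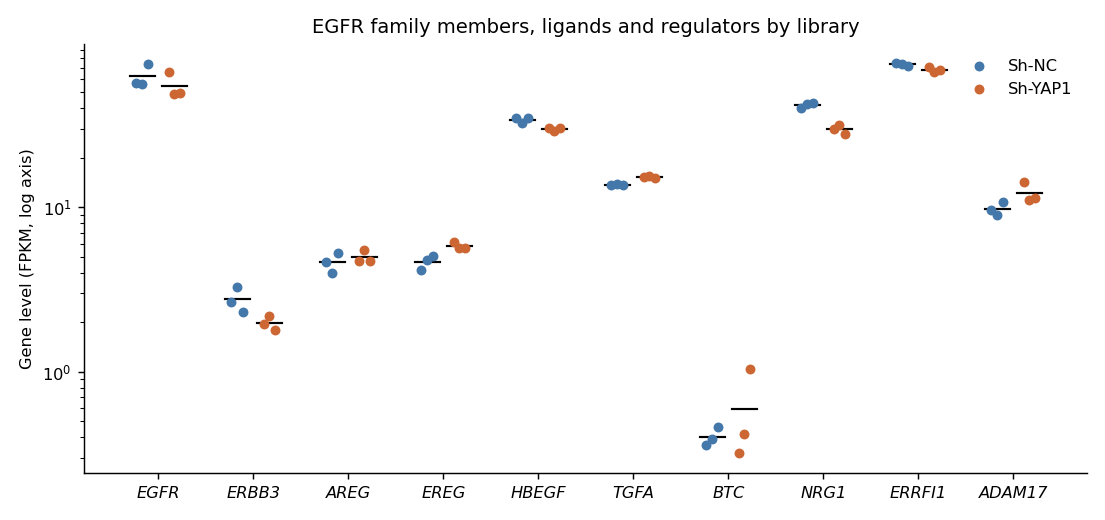
Gene level in FPKM (log axis) of the 10 genes in the 3 Sh-NC (blue) and 3 Sh-YAP1 (orange) libraries, 1 point per library, with the group mean as a black bar. NRG1 lies between 39.9 and 42.7 FPKM in Sh-NC and between 27.8 and 31.6 FPKM in Sh-YAP1, and the points of EGFR, AREG and BTC overlap between the groups.

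**Figure D2:**
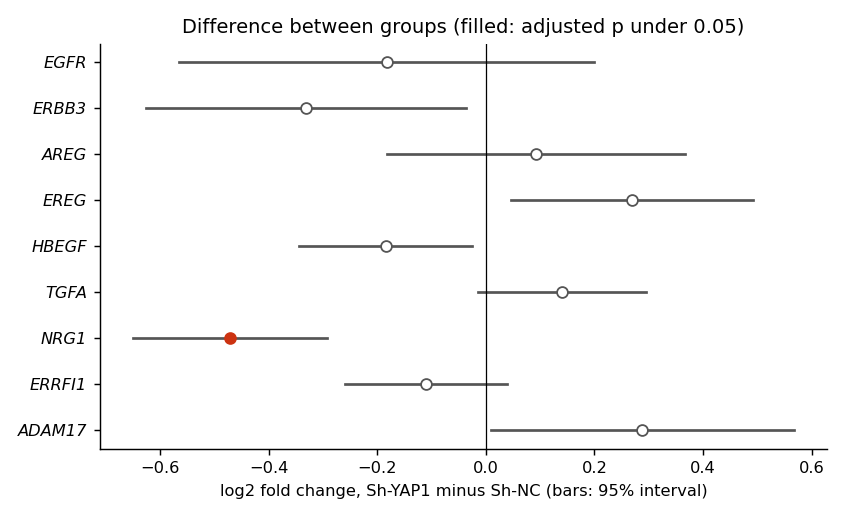
Log2 fold change (Sh-YAP1 minus Sh-NC) of the 9 tested genes with its 95% interval from limma. The filled point marks NRG1, the gene with an adjusted p under 0.05, and the intervals of EGFR, AREG, TGFA and ERRFI1 include 0.

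NRG1 (ENSG00000157168) encodes neuregulin, the ligand of ERBB3 and ERBB4, and occupies 31639386 to 32767959 on chromosome 8 (plus strand, GRCh38). Its level was 39.9, 42.0 and 42.7 FPKM in the Sh-NC libraries. It was 29.8, 31.6 and 27.8 FPKM in the Sh-YAP1 libraries. Every Sh-YAP1 library lay below every Sh-NC library, and the gap between the groups was wider than the range within either group. The mean fell by 28.5%, from 41.5 ± 1.47 to 29.7 ± 1.91 FPKM (SD, n = 3 each). The log2 fold change was -0.47 (standard error 0.07, 95% interval -0.65 to -0.29, limma, Benjamini-Hochberg-adjusted p = 0.0286). By exact permutation of the 6 libraries (two-sided) p was 0.1, the smallest that 3 against 3 allow. The direction stayed with each library left out in turn, with log2 fold changes from -0.52 to -0.43, but the call was lost each time (limma, Benjamini-Hochberg-adjusted p = 0.0741 to 0.10). Cells that carry less NRG1 RNA and fewer cells that express it cannot be told apart in these bulk libraries.

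The level of NRG1 was spread over many transcripts. The deposited values hold 37 NRG1 transcripts without transcript identifiers, more than the 22 that GENCODE 29 lists, and 17 reached a mean of 0.1 FPKM and were tested. Of these, 15 had a lower mean in Sh-YAP1 and 2 a higher one, and none passed at 0.05 after Benjamini-Hochberg adjustment in limma over 77655 transcripts, against a background of 0.0515% of all transcripts. Before adjustment 1 of them had a p under 0.05 in limma, against 6.12% of all transcripts. Single transcripts varied widely within a group, which limits this test, and a transcript that did not pass is not shown to be unchanged. That transcript was at 5.25, 3.88 and 9.27 FPKM in the Sh-NC group and at 2.83, 2.89 and 2.72 FPKM in the Sh-YAP1 group. The transcript with the highest mean held 19.6% of the gene. It was listed at 11.1, 0 and 3.28 FPKM in the Sh-NC group and at 11.6, 15.9 and 0 FPKM in the Sh-YAP1 group. The next transcript was likewise listed at 0 in Sh-NC replicate 2 and Sh-YAP1 replicate 3, and at 6.18 to 13.4 FPKM in the other four libraries. Another transcript had the opposite pattern, with 13.04 and 11.7 FPKM in Sh-NC replicate 2 and Sh-YAP1 replicate 3 and at most 1.2 FPKM elsewhere. The libraries therefore differed within each group in which NRG1 transcripts were listed, while the total separated the groups. The genes that overlap NRG1 in the annotation were all listed at 0.

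EGFR (ENSG00000146648, chromosome 7, plus strand, 55019021 to 55211628) was expressed at 57.0, 55.8 and 73.5 FPKM in the Sh-NC libraries. It was at 66.4, 48.55 and 49.25 FPKM in the Sh-YAP1 libraries. The groups overlapped, since Sh-YAP1 replicate 1 lay above 2 of the Sh-NC libraries. The log2 fold change was -0.18 (standard error 0.16, 95% interval -0.57 to 0.20, limma, Benjamini-Hochberg-adjusted p = 0.551). Of the 10 listed EGFR transcripts, a single one held 84.1% of the gene. It was at 55.0, 53.7 and 48.0 FPKM in the Sh-NC group and at 44.1, 47.0 and 47.1 FPKM in the Sh-YAP1 group. For this transcript every Sh-YAP1 library lay below every Sh-NC library, with a log2 fold change of -0.17 (standard error 0.10, limma, Benjamini-Hochberg-adjusted p = 0.803 over all transcripts). The high gene levels of Sh-NC replicate 3 and Sh-YAP1 replicate 1 came with a second transcript at 17.9 and 12.4 FPKM, which did not exceed 0.05 FPKM in the other four libraries. Another transcript was at 5.69 and 8.36 FPKM in the same libraries and at most 0.62 FPKM elsewhere. Without Sh-NC replicate 3 the log2 fold change of the gene was -0.057, and without Sh-YAP1 replicate 1 it was -0.33. The antisense gene EGFR-AS1 did not exceed 0.28 FPKM.

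**Figure D3:**
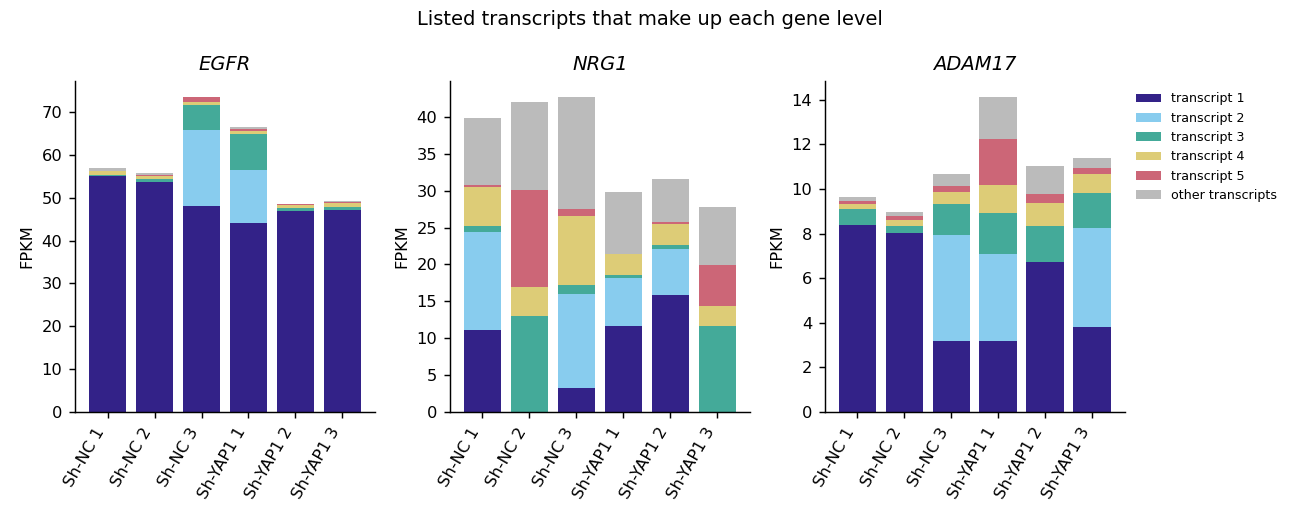
FPKM of the listed transcripts of EGFR, NRG1 and ADAM17 in each of the 6 libraries, stacked from 0, with the 5 transcripts of highest mean in colour and the others in grey. The transcript mixture differs between libraries of the same group, as for the second EGFR transcript, which is visible in Sh-NC replicate 3 and Sh-YAP1 replicate 1.

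ERBB3 (ENSG00000065361, chromosome 12, plus strand, 56076799 to 56103505) was weakly expressed. Its level was 2.67, 3.27 and 2.32 FPKM in the Sh-NC libraries and 1.95, 2.17 and 1.80 FPKM in the Sh-YAP1 libraries. The groups did not overlap, and the distance between the closest libraries was small. The log2 fold change was -0.33 (standard error 0.12, 95% interval -0.62 to -0.04), which did not pass the test (limma, Benjamini-Hochberg-adjusted p = 0.186). The most abundant of its 23 listed transcripts held 30.4% of the gene and averaged 0.70 FPKM in Sh-NC, against 0.737 FPKM in Sh-YAP1. The second transcript was at 0.54, 0.50 and 0.59 FPKM in the Sh-NC group and at 0.22, 0.33 and 0.25 FPKM in the Sh-YAP1 group.

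AREG and EREG encode amphiregulin and epiregulin and are neighbours on chromosome 4. With EPGN and BTC, which encode the EGFR ligands epigen and betacellulin, they are the 4 protein-coding genes in a stretch of 486 kb from 74308473 to 74794686 of GRCh38. Promoter sequences (RefSeq, GRCh38.p14, from 250 bases before to 50 bases after a transcription start) were found for 8 of the 10 genes, some with more than 1 start, 10 windows in all. NRG1 and ERBB3 had no window and were not searched. The windows of AREG and EREG are shown because AREG is the reported YAP1 target and EREG its neighbour with the larger difference. They were searched on both strands for GGAATG, the core of the TEAD motif, for TGACGTCA, the cyclic AMP response element, and for TGANTCA, the AP-1 motif. Each window below holds a single match, in capitals.
AREG, chr4:74444886-74445185, plus strand: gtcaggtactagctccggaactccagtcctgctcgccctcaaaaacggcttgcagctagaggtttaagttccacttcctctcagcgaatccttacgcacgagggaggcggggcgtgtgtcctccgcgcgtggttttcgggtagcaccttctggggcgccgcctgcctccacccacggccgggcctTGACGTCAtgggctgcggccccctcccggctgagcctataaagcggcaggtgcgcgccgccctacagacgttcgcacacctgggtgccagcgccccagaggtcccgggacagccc
EREG, chr4:74364895-74365194, plus strand: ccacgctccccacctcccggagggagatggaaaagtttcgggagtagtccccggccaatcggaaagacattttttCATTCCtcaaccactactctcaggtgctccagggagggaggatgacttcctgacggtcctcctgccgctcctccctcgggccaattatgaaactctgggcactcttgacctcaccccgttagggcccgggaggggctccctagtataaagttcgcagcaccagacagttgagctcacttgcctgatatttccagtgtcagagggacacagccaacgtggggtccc
The AREG window holds TGACGTCA 65 bases before the start, letters found in 1.85% of all 35116 promoter windows, and no GGAATG. The EREG window holds GGAATG on the opposite strand, 175 bases before the start. GGAATG was found in 14.0% of all windows and in 3 of the 10 windows of the members, in those of EREG and ADAM17 and in the second window of EGFR. TGANTCA, found in 7.71% of all windows, was in 1 window of the members, the second of EGFR. These matches are letters in a window and were not tested for binding.

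AREG (ENSG00000109321, plus strand, 74445134 to 74455009) was at 4.66, 3.99 and 5.26 FPKM in the Sh-NC libraries. It was at 4.74, 5.51 and 4.73 FPKM in the Sh-YAP1 libraries. The groups overlapped, and a single Sh-YAP1 library lay above all Sh-NC libraries. The log2 fold change was 0.09 (standard error 0.11, limma, Benjamini-Hochberg-adjusted p = 0.688), and its 95% interval ran from -0.18 to 0.37. The value depended on single libraries, from 0.0073 without Sh-NC replicate 2 to 0.17 without Sh-NC replicate 3. One of the 3 listed AREG transcripts held 96.9% of the gene. The hg19 build, which the processing notes of the submitters name, carries a near-identical copy of AREG called AREGB, for which no gene is listed here, so the level of AREG is uncertain to the extent that fragments matched both copies. The listed gene identifiers match an annotation of GRCh38, and which build the FPKM values rest on is not settled by the sources used here.

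EREG (ENSG00000124882, plus strand, 74365143 to 74388751) was at 4.18, 4.75 and 5.05 FPKM in the Sh-NC libraries. It was at 6.14, 5.62 and 5.68 FPKM in the Sh-YAP1 libraries, above every Sh-NC library. The means were 4.66 ± 0.442 FPKM and 5.81 ± 0.284 FPKM (SD, n = 3 each). Its log2 fold change was 0.27 (standard error 0.09, 95% interval 0.05 to 0.49), and it did not pass the test (limma, Benjamini-Hochberg-adjusted p = 0.164).

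HBEGF, the heparin-binding ligand of EGFR (ENSG00000113070, chromosome 5, minus strand, 140332843 to 140346631), had the highest level of the EGFR ligands. It was at 34.7, 32.3 and 34.7 FPKM in the Sh-NC libraries and at 30.1, 28.96 and 30.1 FPKM in the Sh-YAP1 libraries. All Sh-YAP1 libraries lay below all Sh-NC libraries. The difference on the log2 scale was -0.18 (standard error 0.07, 95% interval -0.34 to -0.03, limma, Benjamini-Hochberg-adjusted p = 0.174). A single transcript held 97.3% of the gene.

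TGFA, which encodes transforming growth factor alpha (ENSG00000163235, chromosome 2, minus strand, 70447280 to 70554193), had the narrowest spread of the ligands relative to its level. It was at 13.6, 13.9 and 13.7 FPKM in the Sh-NC libraries and at 15.3, 15.4 and 15.0 FPKM in the Sh-YAP1 libraries. The groups did not overlap, and the difference between them was 11.0% of the Sh-NC mean. On the log2 scale the fold change was 0.14 (standard error 0.06, 95% interval -0.01 to 0.30, limma, Benjamini-Hochberg-adjusted p = 0.265).

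BTC (ENSG00000174808, minus strand, 74744759 to 74794686) was near the lower end of the values. It was at 0.36, 0.39 and 0.46 FPKM in the Sh-NC libraries and at 0.32, 0.42 and 1.04 FPKM in the Sh-YAP1 libraries. The groups overlapped, and the higher Sh-YAP1 mean came with replicate 3. Fitted with no minimum level, its log2 fold change was 0.16 (standard error 0.17, limma, Benjamini-Hochberg-adjusted p = 0.724).

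The 5 EGFR ligands together were at 57.5, 55.3 and 59.2 FPKM in the Sh-NC libraries and at 56.55, 55.9 and 56.5 FPKM in the Sh-YAP1 libraries. The sums overlapped between the groups, whereas the shares of HBEGF, TGFA and EREG did not. HBEGF held 58.4% to 60.4% of the sum in Sh-NC and 51.8% to 53.2% in Sh-YAP1. TGFA held 23.1% to 25.1% in Sh-NC and 26.6% to 27.5% in Sh-YAP1. EREG held 7.27% to 8.59% in Sh-NC and 10.1% to 10.9% in Sh-YAP1. The share of AREG overlapped, with 7.22% to 8.89% in Sh-NC and 8.37% to 9.86% in Sh-YAP1, and so did that of BTC, with 0.626% to 0.778% and 0.566% to 1.84%. These shares are a description with no test, and a share also moves when another ligand of the sum moves.

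**Figure D4:**
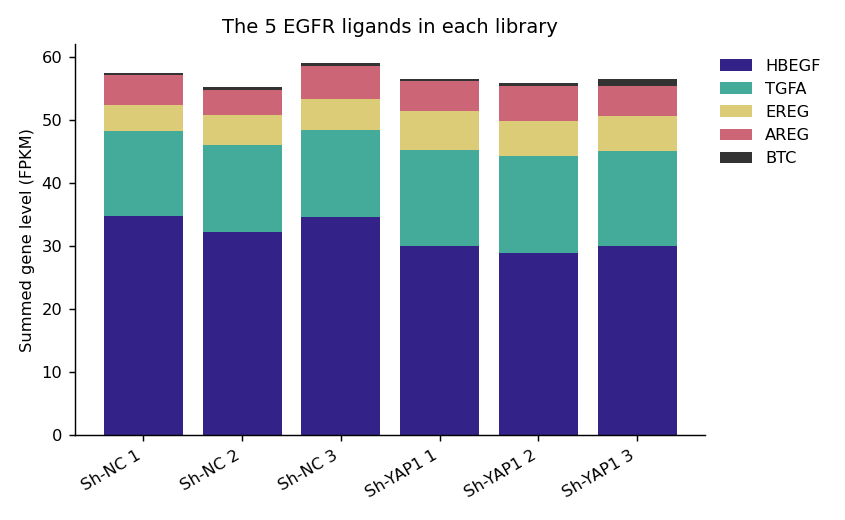
Summed gene level in FPKM of HBEGF, TGFA, EREG, AREG and BTC in each library, stacked from 0. The height lies between 55.3 and 59.2 FPKM in every library, and HBEGF takes 58.4% to 60.4% of it in Sh-NC and 51.8% to 53.2% in Sh-YAP1.

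ERRFI1 (ENSG00000116285, chromosome 1, minus strand, 8004404 to 8026308) encodes a protein that binds the EGFR kinase domain and inhibits it, and its transcription is induced by EGFR signalling. It had the highest mean level of the 10 genes. Its level was 74.5, 74.2 and 71.6 FPKM in the Sh-NC libraries and 70.6, 65.7 and 67.55 FPKM in the Sh-YAP1 libraries. The groups did not overlap, and the closest libraries, at 71.6 and 70.6 FPKM, nearly met. Its log2 fold change was -0.11 (standard error 0.06, 95% interval -0.26 to 0.04, limma, Benjamini-Hochberg-adjusted p = 0.350). All 4 of its tested transcripts were lower in Sh-YAP1, and none had an unadjusted p under 0.05 in limma, against 6.12% of all transcripts.

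ADAM17 (ENSG00000151694, chromosome 2, minus strand, 9488486 to 9556732) encodes the protease that sheds AREG, EREG, HBEGF and TGFA from the membrane. It was at 9.66, 8.95 and 10.7 FPKM in the Sh-NC libraries. It was at 14.1, 11.0 and 11.4 FPKM in the Sh-YAP1 libraries, above every Sh-NC library. The difference on the log2 scale was 0.29 (standard error 0.12, 95% interval 0.01 to 0.57, limma, Benjamini-Hochberg-adjusted p = 0.216). Without Sh-YAP1 replicate 1, the highest of its group, the difference was 0.19. Of the 16 listed transcripts 8 were tested, of which 7 had a higher mean in Sh-YAP1 and 1 a lower one. None passed after adjustment, against 0.0515% of all transcripts. The transcript with the lower mean was the most abundant, which held 50.6% of the gene, with 8.39, 8.01 and 3.17 FPKM in the Sh-NC group and 3.18, 6.72 and 3.83 FPKM in the Sh-YAP1 group. Another transcript, without overlap, was at 0.25, 0.27 and 0.54 FPKM in Sh-NC and at 1.23, 1.04 and 0.86 FPKM in Sh-YAP1. It held 6.36% of the gene and was the single one of the 8 with an unadjusted p under 0.05 in limma, against 6.12% of all transcripts. The second most abundant transcript had a value of 0 in replicates 1 and 2 of Sh-NC and in replicate 2 of Sh-YAP1, and was at 3.92 to 4.75 FPKM in the other libraries. The gene IAH1 overlaps ADAM17 on the opposite strand and was at 12.3 to 14.9 FPKM in Sh-NC and 15.9 to 18.9 FPKM in Sh-YAP1. Whether fragments were counted by strand is not given in the sources used here, so fragments of ADAM17 and IAH1 in the shared stretch cannot be told apart.

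In Sh-NC the mean gene levels in FPKM were ordered ERRFI1, EGFR, NRG1, HBEGF, TGFA, ADAM17, EREG, AREG, ERBB3 and BTC, from 73.4 to 0.403 FPKM. The ranges of ERRFI1 and EGFR overlapped in Sh-NC, as did those of EREG and AREG, and the other neighbours did not overlap. The same order of means held in Sh-YAP1. There the ranges of ERRFI1 and EGFR overlapped again, those of NRG1 and HBEGF overlapped as well, and those of EREG and AREG no longer did. In Sh-YAP1 the means of NRG1 and HBEGF were both 29.7 FPKM.

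Around these genes, 58 other genes of the pathway were examined in 6 lists, of which 54 were tested. ADAM15 rose and EPS15 fell (limma, adjusted p under 0.05 with Benjamini-Hochberg adjustment), and the other 52 did not pass. A count of 2 of 54 is close to the 3.38% of all genes that passed, so it does not set the pathway apart. The median log2 fold change of the 54 genes was 0.07. ADAM15, a membrane protease of the ADAM family, was at 25.8, 26.9 and 23.3 FPKM in the Sh-NC group and at 43.8, 49.9 and 56.9 FPKM in the Sh-YAP1 group. Its log2 fold change was 0.95 (standard error 0.11, limma, Benjamini-Hochberg-adjusted p = 0.0135). The call was lost without Sh-NC replicate 1 (0.0605), Sh-NC replicate 2 (0.0531) or Sh-YAP1 replicate 2 (0.0587, all limma adjusted p-values with Benjamini-Hochberg adjustment), with log2 fold changes between 0.86 and 1.05 over the 6 libraries left out in turn. It was also lost with the most abundant transcript in place of the gene sum (0.93, limma, Benjamini-Hochberg-adjusted p = 0.356). EPS15, an endocytic adaptor and substrate of the EGFR kinase, was at 7.80, 8.44 and 8.90 FPKM in the Sh-NC group and at 5.59, 5.77 and 5.94 FPKM in the Sh-YAP1 group. Its log2 fold change was -0.47 (standard error 0.08, limma, Benjamini-Hochberg-adjusted p = 0.0354), and its call was lost with no minimum level, with the most abundant transcript, and with any library left out (for the last, limma, Benjamini-Hochberg-adjusted p = 0.0884 to 0.117).

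Of the 7 other ERBB receptors and ligands, 3 were tested and none passed, with a median log2 fold change of 0.05. ERBB2, the receptor without a known ligand, was at 15.9 ± 1.90 FPKM in Sh-NC, against 14.6 ± 0.234 FPKM in Sh-YAP1, and NRG2 was at 2.05 ± 0.166 and 2.15 ± 0.0451 FPKM (SD, n = 3 each). ERBB4, EPGN, NRG3 and NRG4 were below the minimum level. Of the 7 genes for the shedding of ligands, ADAM15 rose and 6 did not pass, among them the protease gene ADAM9 at 38.7 ± 2.16 and 43.2 ± 2.80 FPKM (SD, n = 3 each). The 10 negative regulators of EGFR had a median of 0.18, and none passed. SH3KBP1, an adaptor for the ubiquitin ligase CBL, was at 18.2 ± 3.17 FPKM in Sh-NC, against 27.5 ± 1.53 FPKM in Sh-YAP1 (SD, n = 3 each, limma, Benjamini-Hochberg-adjusted p = 0.0704). PTPN1, a phosphatase that acts on EGFR, was at 64.2 ± 1.10 and 55.7 ± 0.741 FPKM (SD, n = 3 each, limma, Benjamini-Hochberg-adjusted p = 0.115).

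Of the 10 adaptors and exchange factors, EPS15 fell and 9 did not pass. SHC1 was at 65.0 ± 6.66 FPKM in Sh-NC, against 68.3 ± 7.82 FPKM in Sh-YAP1, and PTPN11 was at 50.1 ± 1.15 and 55.2 ± 0.595 FPKM (SD, n = 3 each). GRB2, the adaptor that links EGFR to RAS activation, was named after its values were seen. It was at 50.1, 53.5 and 49.1 FPKM in the Sh-NC group and at 28.0, 42.6 and 29.9 FPKM in the Sh-YAP1 group, without overlap, and did not pass (limma, Benjamini-Hochberg-adjusted p = 0.0899). It passed when Sh-YAP1 replicate 2, the highest of its group, was left out. None of the 10 genes from RAS to ERK passed, and their median was -0.01. The kinase gene MAP2K2 was at 91.6 ± 2.74 FPKM in Sh-NC, against 103.3 ± 14.9 FPKM (SD, n = 3 each) in Sh-YAP1. None of the 14 ERK-responsive genes passed, with a median of 0.07. FOSL1 was at 121.6 ± 10.8 and 119 ± 5.06 FPKM, and IER3 at 132.3 ± 3.64 and 132.4 ± 16.2 FPKM (SD, n = 3 each). Before adjustment, 3 of the 14 had a p under 0.05 in limma, which is close to the 21.9% of all genes tested and no result about these genes as a group. They were EGR1, PHLDA1 and DUSP6, named after their values were seen, with log2 fold changes of 0.40, 0.56 and 0.34 and adjusted p-values of 0.0610, 0.0802 and 0.0826 (limma, Benjamini-Hochberg).

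**Figure D5:**
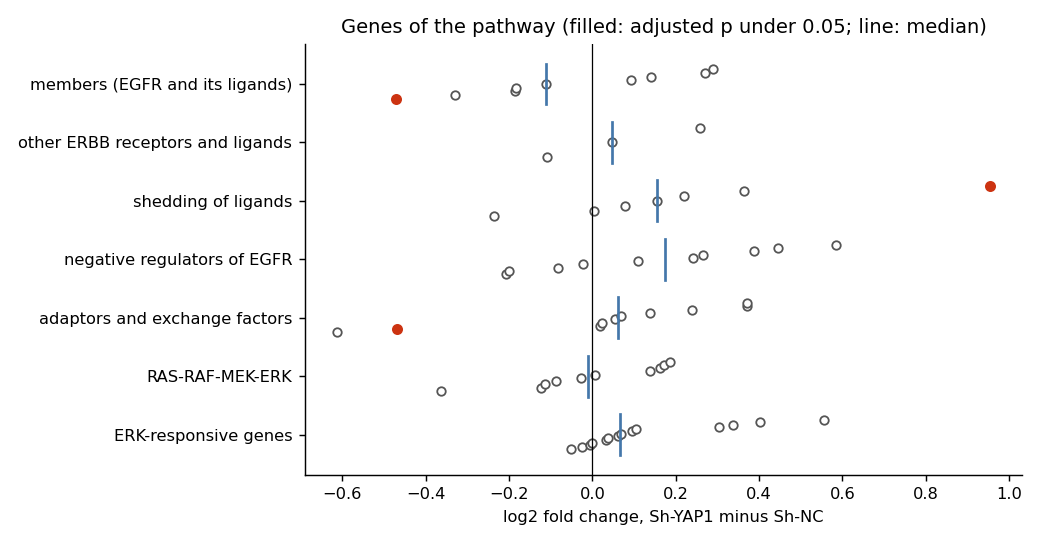
Log2 fold change (Sh-YAP1 minus Sh-NC) of the tested genes in the members' list and the 6 other lists, 1 point per gene, with the list median as a blue line. Filled points have an adjusted p under 0.05 and are NRG1 among the members, ADAM15 among the genes for shedding and EPS15 among the adaptors.

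The genes whose 6 values, each less the Sh-NC mean on the log2(FPKM + 1) scale, were most like those of EGFR were NDUFAF2P1, SPDL1 and ARF3, with a root mean square difference of 0.0308, 0.0561 and 0.0588 among 13098 genes compared. For AREG they were CDK1, EFR3A and TWF1P1, with 0.0202, 0.0318 and 0.0337. With 6 libraries and this many genes, close profiles are found for many genes, and the names are a description.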

How the data were processed

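The authors deposited FPKM values with 2 decimals, 229420 transcripts per library, labelled by gene and not by transcript. The submitters' processing notes name HISAT2 2.0, Bowtie 0.12.2 and hg19. The roles of these tools, the quantification tool and the annotation are not given in the sources used here. Transcripts of a gene were summed, and symbols were assigned to 60401 of 60612 gene identifiers. Positions are from GENCODE 29 on GRCh38.

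A mean over the libraries of 0.5 FPKM was the minimum for genes and 0.1 FPKM that for transcripts. They were compared as log2(FPKM + 1) with limma 3.58.1 in R 4.3.3 (eBayes with trend, condition as the only factor, Benjamini-Hochberg adjustment over all features), and the fits were tried on simulated data. There, changed transcripts were called much less often than changed genes, so a transcript that did not pass is not shown to be unchanged. Single genes were also compared with exact two-sided permutation tests. Other steps used Python 3.11.15.

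The members and lists were chosen with earlier results of these data known. The text names all members, the pathway genes past the threshold, the 2 of highest mean in each list, and the 3 genes closest in profile to EGFR and AREG. Some genes that this rule or a list holds are not reported here. Alternatives are given in the closing section.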

Additional observations from a re-analysis of the deposited data

How the results depend on the processing

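At an adjusted p under 0.05 (limma and Benjamini-Hochberg throughout), 499 genes passed. It was 232 with no minimum level, 96 with the transcript of highest mean in place of the gene sum (an alternative chosen after seeing the data), and 78 to 171 with 1 library left out. With replicate number added as a block to the fit, 1 gene, 0 members, 0 other pathway genes and 0 transcripts passed, while 2779 genes, 2 members, 13 pathway genes and 3553 transcripts had an unadjusted p under 0.05. The block cannot change a fold change in this balanced design, and with it the calls of NRG1 (adjusted p = 0.138), ADAM15 (0.118) and EPS15 (0.146) were lost. Libraries that share a number deviated from their groups with correlations of -0.028, 0.062 and 0.004, so the numbers were not taken as pairs. Of the members, 0 passed with 1 library left out (0 to 0) and 0 with the transcript of highest mean, and NRG1 was called in the other 8 alternatives. Its adjusted p ranged from 0.0248 to 0.865. Of the pathway genes, 1 passed with no minimum level and 0 to 1 with 1 library left out. Of the transcripts, 40 passed, against 75 with a pseudocount of 0.1, 74 with no trend, 62 with a minimum mean of 0.5 FPKM and 16 to 36 with 1 library left out. With the transcript of highest mean the log2 fold change reversed for NRG1 (0.68), ERBB3 (0.032), ADAM17 (-0.39), SHC1 (-1.24) and MAP2K2 (-0.044), for which that transcript is a part of the gene, and YAP1 (-1.97, adjusted p = 0.381) was no longer called. With transcripts under 0.1 FPKM left out it reversed for NRG2 (-0.019), and with quantile normalization for IER3 (0.047) and FOSL1 (0.028). With 1 library left out it ranged from -0.021 to 0.14 for SHC1, from -0.10 to 0.059 for IER3 and from -0.071 to 0.046 for FOSL1. EGFR, AREG, EREG, HBEGF, TGFA and ERRFI1 kept their direction and did not pass in any of 16 alternatives, although AREG ranged from 0.0073 to 0.17, and TGFA and ERRFI1 were at 0.092 and -0.060 with the transcript of highest mean. Depth is unknown, so sampling error within a library was not estimated.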
